A study of Mus musculus with 9 samples.

Results

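The 6 transport genes described here belong to the early secretory pathway and were followed in alveolar bone of the mouse maxilla, in 4 libraries made after healing without a graft and 5 made after an allograft. They are Sec24d and Tfg (exit from the endoplasmic reticulum, ER), Lman1 (cargo receptor), Uso1 (tether), and Arf4 and Golph3 (Golgi). They were chosen by name from the 98 genes of the deposited table, and all 6 names were found there. The table itself was selected on the measured difference between these same groups. The authors kept in it only the 98 genes whose adjusted p was below 0.1. They are 0.573% of the 17100 genes tested by DESeq2, a number worked out from the deposited p-values. Every difference between the groups given here is therefore a description, with no test, and does not support the choice of the genes. The mice were male C57BL/6, 8 weeks old, and the maxillary first molar was extracted to create the osseous defect in both groups. In the Spon. Healing group (NT in the labels, alveolar bone defect) the socket healed by itself, and in the Allograft group (SALINE in the labels) it received allograft particles together with saline. The particles were ground femurs and tibias of C57BL/6 mice, stripped of periosteum and marrow, treated with hydrogen peroxide and tert-butyl alcohol and freeze-dried, and the labels do not say whether saline was given once or repeatedly. Total RNA came from homogenized upper jaws at 2 weeks of healing, and the sources do not say whether a library held bone of more than 1 mouse. The labelled tissue could not be checked, since none of 11 osteoblast and osteocyte markers (such as Runx2, Sp7 and Bglap) is in the table.

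Secretory and membrane proteins are folded in the ER and leave it at exit sites in vesicles coated by COPII, whose outer and inner layers assemble on the GTPase Sar1. The vesicles fuse with the ER-Golgi intermediate compartment and the Golgi, where long tethering proteins hold them before fusion, while COPI vesicles, which need Arf GTPases, return receptors and Golgi enzymes. Bone matrix is made of large cargo such as procollagen, and cells that secrete it depend heavily on this route.

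Promoter sequences are shown for the members with a match to any of 4 motifs of the ER stress, Golgi stress and cAMP responses. They are given because the 6 genes lay close together in their group ratios. Selection for the same contrast favours like ratios, and shared control was not tested. RefSeq promoters (GRCm38.p6, 250 bases before to 50 after the transcript start) matched 5 of the 6 members by symbol, all except Lman1. Both strands were searched for the ER stress response element (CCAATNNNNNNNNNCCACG), TGACGTG (core of the unfolded protein response element), TGACGTCA (cAMP response element) and ACGTGGC (core of the Golgi stress response element, bound by TFE3). The motifs TGACGTG and ACGTGGC can overlap, and capitals mark every match, which on the opposite strand reads as the reverse complement.
Uso1, 120 bases before its annotated start, plus strand, chr5:92137818-92137937: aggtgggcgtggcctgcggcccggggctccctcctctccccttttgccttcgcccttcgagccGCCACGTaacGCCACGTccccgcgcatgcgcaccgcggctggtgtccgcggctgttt
Golph3, 120 bases before its annotated start, plus strand, chr15:12321330-12321449: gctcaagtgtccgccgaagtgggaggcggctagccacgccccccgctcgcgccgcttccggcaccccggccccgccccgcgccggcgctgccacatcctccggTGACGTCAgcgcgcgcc
Sec24d, 29 bases in its annotated first exon, plus strand, chr3:123267460-123267488: cccgggcgccTGACGTGGCactagcaacc

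Uso1 carried the Golgi element core on the opposite strand at 2 places, 57 and 47 bases before the transcript start. Golph3 carried the cAMP response element 63 bases before its RefSeq start. Sec24d carried the unfolded protein response core and the Golgi core overlapping each other, 26 and 24 bases before its RefSeq start, a stretch that the deposited table places inside the gene. No match to these 4 motifs was found in the windows of Arf4 and Tfg, and none of the 5 held the ER stress response element. Among all 32851 promoters of the same length the share with a match was 2.58% for the Golgi core, 2.01% for the unfolded protein response core, 1.79% for the cAMP response element and 0.119% for the ER stress response element. All these motifs hold CG, and the 250 bases before the start had a GC content of 66.8% to 73.2% in the 5 members, above the median of 52.4% over all promoters. A match is a run of letters and was not tested as a binding site.

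All 6 genes had higher mean normalized counts in Allograft than in Spon. Healing, by 1.40-fold to 1.45-fold. The log2 ratios of the group means ran from 0.48 for Golph3 to 0.54 for Lman1, with a median of 0.51, where the median over all 98 genes of the table was 0.46 and that over its 65 higher genes was 0.56. In rank among these 65 genes the members stood between 34 and 47, so they are in the middle to lower part of a table chosen for a difference. In 4 of the 6 (Sec24d, Tfg, Arf4 and Golph3) every Allograft library lay above every Spon. Healing library, beside 53.1% of all genes in the table (80.0% of its 65 higher genes). The group libraries overlapped in Lman1 and Uso1. A normalized count is the raw count over the size factor of its library, and the factors ran from 0.577 to 1.44 for the Spon. Healing libraries and from 0.653 to 2.20 for the Allograft libraries. With factors computed from the 98 genes alone (TMM) the members' log2 ratios were 0.16 to 0.22, no member was without overlap (nor with raw counts or median-of-ratios factors over the 98 genes), and the median of all 98 genes shifted by -0.32. In bulk bone, a larger share of cells that use these genes and more of their RNA per cell cannot be told apart.

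**Figure D1:**
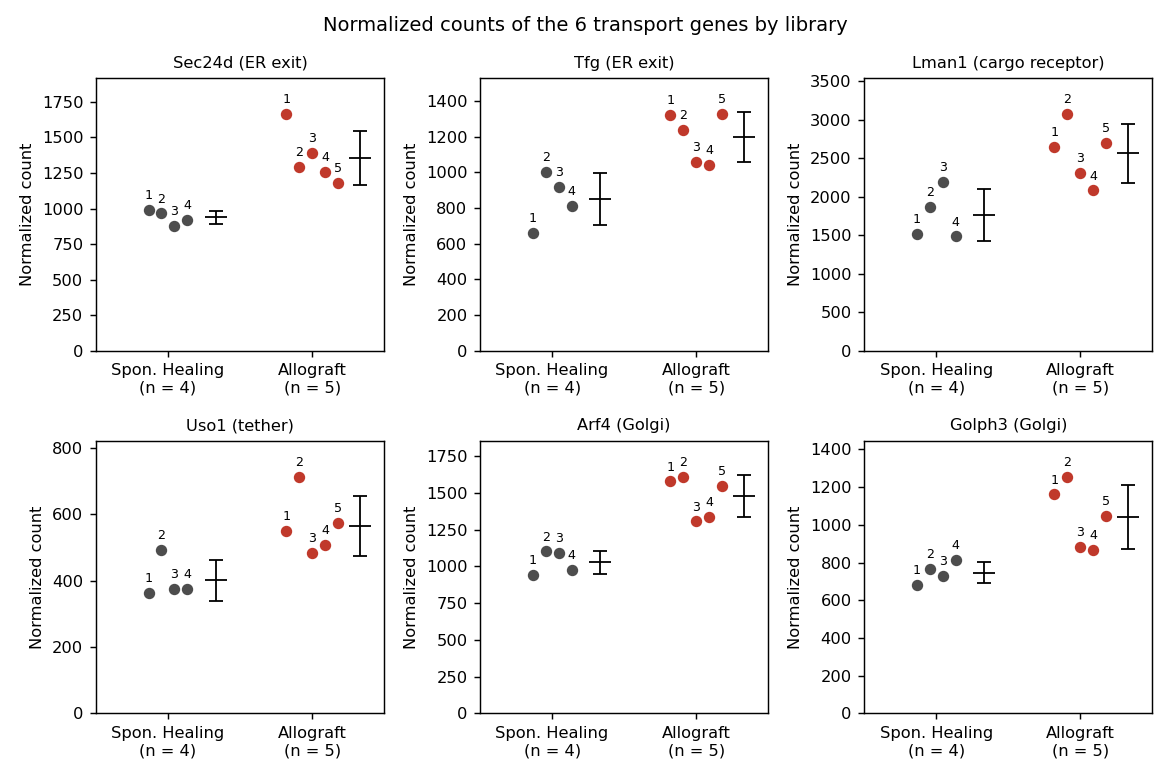
Normalized counts (vertical axes, from 0) of each gene in 4 Spon. Healing and 5 Allograft libraries, with replicate numbers beside the points and the mean ± SD to the right of each group. Lman1 and Uso1 have an Allograft library below the highest Spon. Healing library, and the other 4 genes do not.

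Sec24d encodes a COPII coat subunit that binds cargo, and it is known to be needed for export of procollagen from the ER. The gene (ENSMUSG00000039234) spans 123267455 to 123365641 on the plus strand of chromosome 3 in GRCm38, and its longest coding transcript in GENCODE M21 has 23 exons. In Spon. Healing replicates 1 to 4 the normalized counts of Sec24d were 987, 965, 880 and 919. In Allograft replicates 1 to 5 they were 1665, 1290, 1390, 1256 and 1178. The Spon. Healing libraries were tightly placed, replicate 1 of Allograft was the highest of all, and the lowest Allograft library was 19.3% above the highest Spon. Healing library. The means were 938 ± 48.0 (SD, n = 4) and 1356 ± 189 (SD, n = 5), a log2 ratio of 0.53 (standard error 0.10).

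Tfg encodes a protein that organizes COPII carriers at ER exit sites, and it is also a fusion partner of kinases in tumours. The gene (ENSMUSG00000022757) spans 56690332 to 56717450 on the minus strand of chromosome 16, with 8 exons in the longest coding transcript. Its normalized counts in Spon. Healing replicates 1 to 4 were 662, 1000.1, 918 and 813. In Allograft replicates 1 to 5 they were 1321, 1237, 1059, 1040 and 1327. The groups did not overlap, but Allograft replicate 4 was only 4.01% above Spon. Healing replicate 2. The interval that counting error gives for that Allograft library (998 to 1084, exact 95% Poisson) overlaps that of the Spon. Healing library (949 to 1053), so the separation of these 2 libraries was not detectable at this depth. The means were 848 ± 146 (SD, n = 4) and 1197 ± 139 (SD, n = 5), a log2 ratio of 0.50 (standard error 0.14).

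Lman1 encodes ERGIC-53, a mannose-binding lectin that cycles between the ER and the intermediate compartment and carries coagulation factors V and VIII out of the ER. The gene (ENSMUSG00000041891) spans 65980738 to 66022580 on the minus strand of chromosome 18, with 13 exons in the longest coding transcript. Its normalized counts in Spon. Healing replicates 1 to 4 were 1518, 1868, 2199 and 1485. In Allograft replicates 1 to 5 they were 2650, 3077, 2309, 2084 and 2700. Spon. Healing replicate 3 was above Allograft replicate 4 and below the other Allograft libraries. The means were 1768 ± 336 (SD, n = 4) and 2564 ± 382 (SD, n = 5), a log2 ratio of 0.54 (standard error 0.17). Lman1 had the widest standard error of the 6 genes. Its log2 ratio was the highest of the 6 with the authors' size factors, while that of Sec24d was higher with raw counts and with TMM or median-of-ratios factors over the 98 genes.

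Uso1 encodes p115, the coiled-coil tether that captures vesicles on their way from the ER to the Golgi. The gene (ENSMUSG00000029407) spans 92137938 to 92202798 on the plus strand of chromosome 5, with 24 exons in the longest coding transcript, downstream of the 2 Golgi element cores printed above. The small RNA gene Gm25290 lies in it on the same strand, and Gm15710 and Gm43040 overlap it on the other. Its normalized counts in Spon. Healing replicates 1 to 4 were 363, 493, 374 and 374. In Allograft replicates 1 to 5 they were 551, 713, 483, 507 and 574. Spon. Healing replicate 2 stood apart from the other Spon. Healing libraries and lay above Allograft replicate 3, and Allograft replicate 2 was the highest of all. The means were 401 ± 61.6 (SD, n = 4) and 566 ± 90.1 (SD, n = 5), a log2 ratio of 0.50 (standard error 0.15). This gene had the fewest reads of the 6, with raw counts of 216 to 1116 per library.

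Arf4 encodes a small GTPase of the ARF family that acts in COPI traffic between the Golgi and the intermediate compartment. The gene (ENSMUSG00000021877) spans 26638074 to 26665084 on the plus strand of chromosome 14, with 6 exons in the longest coding transcript. The genes Arf4os and Pde12 overlap it on the other strand, and reads were counted by strand. Its normalized counts in Spon. Healing replicates 1 to 4 were 941, 1102, 1090 and 976. In Allograft replicates 1 to 5 they were 1578, 1610, 1306, 1338 and 1547. Both groups were tightly placed, and the lowest Allograft library was 18.5% above the highest Spon. Healing library. The means were 1027 ± 80.7 (SD, n = 4) and 1476 ± 143 (SD, n = 5), a log2 ratio of 0.52, with a standard error of 0.08 that was the narrowest of the 6.

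Golph3 encodes a Golgi protein that binds phosphatidylinositol 4-phosphate and helps to keep glycosyltransferases in the Golgi. The gene (ENSMUSG00000022200) spans 12321450 to 12351591 on the plus strand of chromosome 15, with 5 exons in the longest coding transcript, and the gene 1810049J17Rik overlaps it on the other strand. Its normalized counts in Spon. Healing replicates 1 to 4 were 680.4, 766, 727 and 813. In Allograft replicates 1 to 5 they were 1161, 1256, 882, 868 and 1047. Allograft replicates 3 and 4 were close to the Spon. Healing libraries, and the lowest Allograft library was 6.81% above the highest Spon. Healing library. The counting interval of that Allograft library (829.7 to 908) overlaps that of Spon. Healing replicate 4 (741 to 889.8), so this separation was not detectable at this depth either. The means were 747 ± 56.3 (SD, n = 4) and 1043 ± 170.3 (SD, n = 5), a log2 ratio of 0.48 (standard error 0.12).

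**Figure D2:**
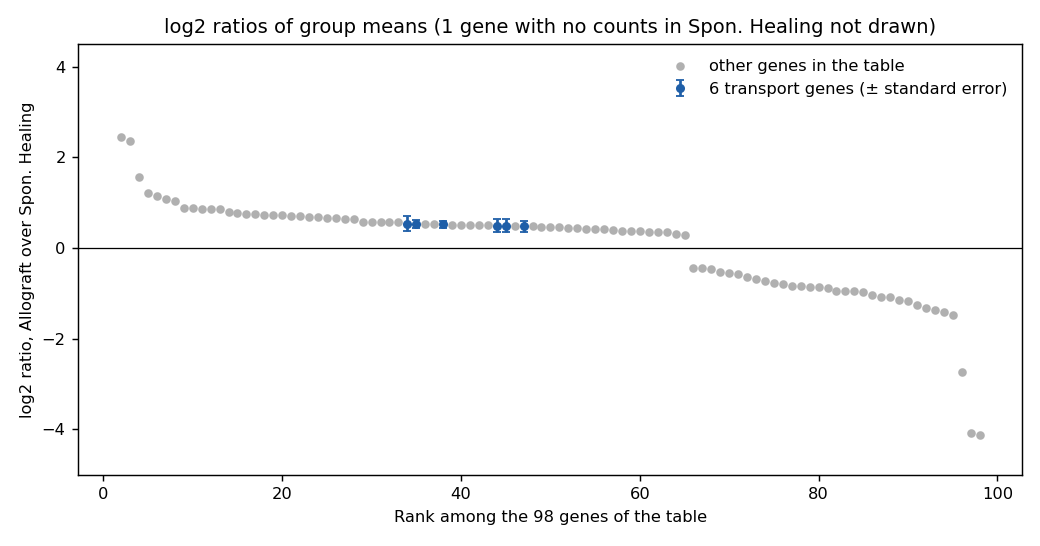
The log2 ratio of group means (vertical axis) is drawn against rank for the genes of the deposited table, with the 6 transport genes in blue and bars for ± 1 standard error. The 6 genes lie between 0.48 and 0.54, at ranks 34 to 47, and 1 gene without counts in Spon. Healing is not drawn.

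The mean proportions of the 6 genes to each other were close in both groups. The share of each gene in the summed normalized counts of the 6 does not depend on the size factor of a library. Lman1 held 30.7% ± 3.40 of the sum (SD, n = 4) without a graft, against 31.2% ± 1.73 (SD, n = 5) with one. Arf4 held 18.0% ± 0.308 (SD, n = 4) and 18.0% ± 0.605 (SD, n = 5), the narrowest spread of the 6. The share of Sec24d was 16.5% ± 2.12 (SD, n = 4) and 16.6% ± 2.39 (SD, n = 5), and that of Tfg was 14.7% ± 1.37 (SD, n = 4) and 14.6% ± 0.866 (SD, n = 5). Golph3 had 13.1% ± 1.46 (SD, n = 4) and 12.7% ± 0.705 (SD, n = 5), and Uso1 had 7.001% ± 0.781 (SD, n = 4) and 6.89% ± 0.614 (SD, n = 5). The differences between the groups ran from -0.45 percentage points for Golph3 to 0.49 for Lman1, each smaller than the SD of that gene's share in either group. These small differences depended on single libraries. Without Spon. Healing replicate 3 they were 2.11 points for Lman1 and -0.90 for Golph3, larger than the SD of these shares in Allograft, and without Spon. Healing replicate 4 they changed sign, to -0.53 for Lman1 and 0.22 for Golph3. The counts come from 3′ ends and are not scaled by length, so the shares are compared between libraries and not between genes. All 6 genes were kept in the table for the same contrast, which favours like ratios among them.

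**Figure D3:**
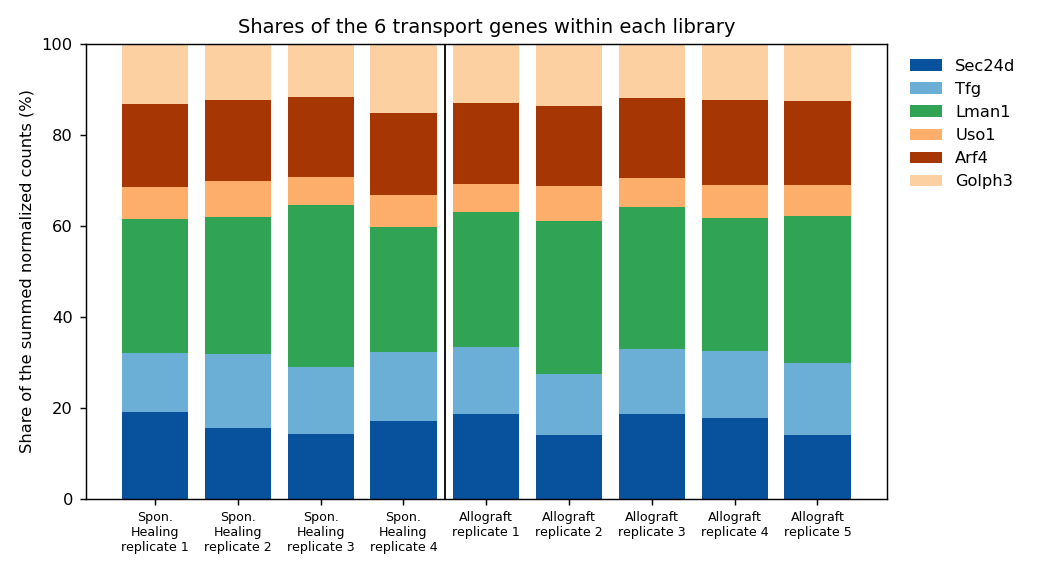
Share of each of the 6 genes in their summed normalized counts (vertical axis, percent) in each of the 9 libraries, with a line between the groups. The group means are close while single libraries vary, and the share of Lman1 lies between 27.6% and 35.5% without a graft and between 29.4% and 33.5% with one.

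Among libraries of the same group, 5 of the genes deviated together, while Sec24d had correlations near 0 with them. This was read from the deviation of each library from its own group's mean in log2(normalized count + 1), a measure outside the group contrast. Over the 9 libraries the correlation of these deviations between Tfg, Lman1, Uso1, Arf4 and Golph3 ran from r = 0.56 to r = 0.89 in the 10 pairs, with a median of 0.72. The highest value was that of Tfg and Arf4, with a Spearman rho of 0.72. In the 5 pairs of Sec24d with the others it ran from -0.11 to 0.18, with a median of -0.01. For instance, Allograft replicate 2 was the highest Allograft library for Lman1, Uso1, Arf4 and Golph3 but the third of 5 for Sec24d, while Allograft replicate 5 was the lowest for Sec24d and above its group mean for the other 5. Sec24d was singled out after its values were seen, and these correlations are descriptions without a p. The libraries share 1 size factor for all genes, and the median r between pairs of the 59 other higher genes with a mean of at least 10 raw counts was 0.16. With the 5 genes themselves these 59 genes had a median r of 0.35 (quartiles -0.10 and 0.65), so deviating together with the 5 was common in the table. Of these 59 genes 20 had a lower median r with the same 5 genes than Sec24d had, so a weak relation to them is not particular to Sec24d.

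The direction of this pattern held in each setting tried, although its size moved. With each library left out in turn the median r among the 5 genes was 0.66 to 0.81, and that of Sec24d with them was -0.37 (without Allograft replicate 1) to 0.19 (without Allograft replicate 5). With TMM factors over the 98 genes the medians were 0.47 and -0.22, and that over all 15 pairs was 0.40. The median r between the other higher genes was not computed with these factors.

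**Figure D4:**
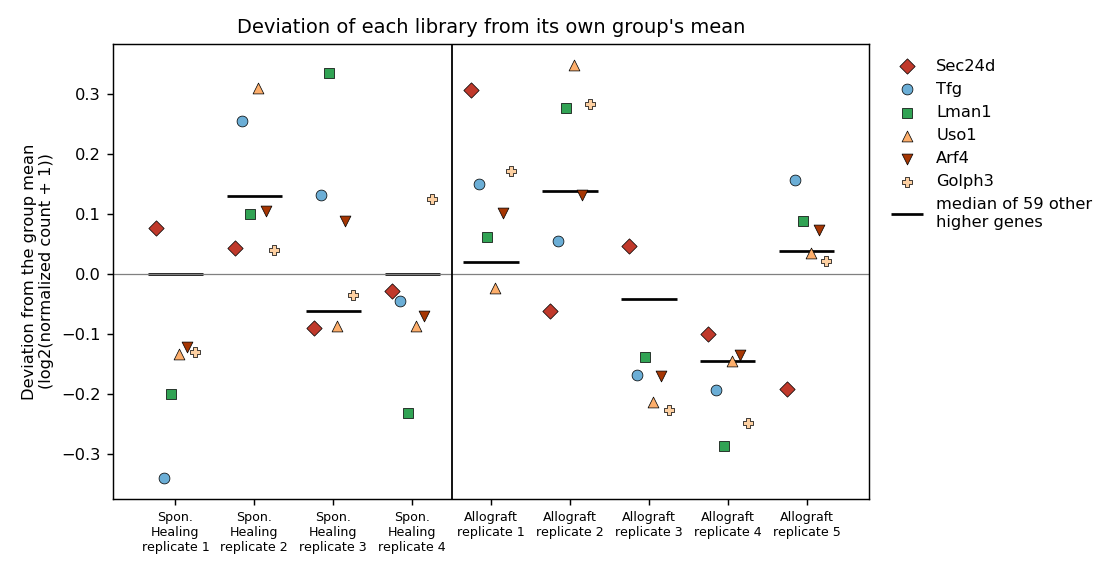
Deviation of each gene from its own group's mean, in log2(normalized count + 1) (vertical axis), for the 9 libraries, where black bars give the median of 59 other higher genes. Spon. Healing replicate 2 is above 0 and Allograft replicate 4 below 0 for all 6 genes, and Sec24d (red diamonds) is on the other side of 0 from the other 5 in Spon. Healing replicate 1 and Allograft replicates 2, 3 and 5.

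Spon. Healing replicate 2 was above its group mean in all 6 genes and Allograft replicate 4 below it in all 6. The mean deviation over the 6 was 0.14 and -0.18 in these libraries, where the median of the 59 other higher genes was 0.13 and -0.14. These are the libraries with the largest size factor in their group (1.44 and 2.20), and whether the factors bear on the deviations was not tested. Spon. Healing replicate 1 was the lowest Spon. Healing library in 4 of the 6 genes, with a mean deviation of -0.14, where the other higher genes had a median near 0 (-0.00023). The observed spread within a group was above what counting alone gives for every gene in both groups. For Sec24d in Spon. Healing the excess was small, and whether it is beyond counting error was not tested. In Spon. Healing the coefficient of variation was lowest for Sec24d, with 5.12% where counting alone gives 3.69%, and highest for Lman1, with 19.0% and 2.69%. In Allograft it was lowest for Arf4, with 9.68% where counting gives 2.58%, and highest for Golph3, with 16.3% and 3.10%. The within-group SD of log2 values had a median of 0.20 over the 6 members and of 0.24 over the 59 other higher genes.

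For Tfg, Lman1, Uso1, Arf4 and Golph3 the 2 genes with the most similar deviations are given. For Lman1 the nearest was Pdia6, a protein disulfide isomerase of the ER, with r = 0.98 and a Spearman rho of 1 over the 9 libraries, and then Eif4ebp1, which restrains translation (r = 0.92). For Tfg the nearest was Creb3l1, a membrane-bound transcription factor that drives secretory and collagen genes in osteoblasts (r = 0.95), and then Arf4 (r = 0.89). For Arf4 they were Eif4ebp1 (r = 0.95) and Tfg. Uso1 was nearest to Tars, the threonyl-tRNA synthetase (r = 0.89), and Magt1, a subunit of the oligosaccharyltransferase (r = 0.89). Golph3 was nearest to the translation initiation factor Eif1 (r = 0.83) and the chaperone Hsph1 (r = 0.82). They were the 2 highest of 95 genes compared for each member, so high values were bound to be found.

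Of 111 genes of the route from ER exit to the Golgi, written as 5 lists with earlier results of these data known, 7 are in the table (6.31%, where the table holds 0.573% of all genes tested), and all 7 were higher in Allograft, as were 66.3% of all genes in the table. The lists were written knowing that the 6 members are in the table, so this share is no result about the route. The 7 are 2 of 19 genes of the COPII coat and ER exit sites, 1 of 22 cargo receptors, 1 of 34 tethers, Rabs and SNAREs, 1 of 17 Arf and COPI genes and 2 of 19 Golgi proteins. The 6 members make up all but Golim4, a Golgi phosphoprotein that cycles to endosomes. The normalized counts of Golim4 were 695, 763, 607 and 832 in Spon. Healing and 1057, 888, 938, 1028 and 929 in Allograft, a log2 ratio of 0.42, with no overlap. The direct partners Sec23a, Sec31a, Mcfd2, Golga2 and Copa are among the 104 listed genes that are not in the table and were not analysed here. Such genes were either not tested by the authors or did not have an adjusted p below the limit. Of 22 genes of ER chaperones, folding and their regulators 7 are in the table (31.8%, beside the same 0.573%), namely Hspa5, Hsp90b1, Dnajc3, Dnajb9, Manf, Pdia6 and the transcription factor Creb3l1. All 7 were higher in Allograft, beside the same 66.3%, with a median log2 ratio of 0.64 where the 6 members had 0.51. The chaperone list and the collagen list that follows were also written with earlier results of these data known. Their shares are therefore no result about these functions either. Of the 13 genes listed here for collagen chains and processing, the main cargo of bone, only Col11a1 is in the table, with a log2 ratio of 0.50. The list does not hold every gene that acts on collagen.

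Other genes kept in the table also differed between the groups, which its filter for this contrast fixed in advance. The 4 mitochondrially encoded mRNAs of the table had a summed normalized count between 39255 and 123415 without a graft and between 122520 and 156876 with one, overlapping in 1 Spon. Healing library, a log2 ratio of 0.70, and their part in the members' differences was not tested. Of 67 markers of bone cells, cartilage, endothelium, blood and immune cells, epithelium and muscle only the endothelial gene Ushbp1 is in the table, where its normalized counts were 167 to 289 without a graft and 38.3 to 114 with one, and its part was not tested either. The 66 other markers were either not tested by the authors or did not have an adjusted p below the limit, which does not show that they were equal. Their counts were not analysed here, so the cell make-up of the groups is not known.

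**Figure D5:**
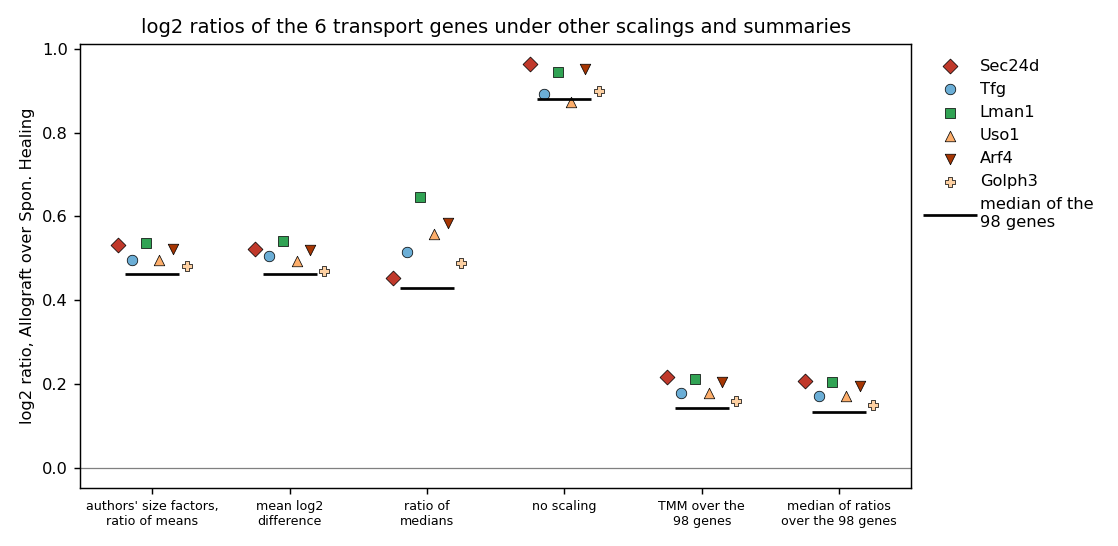
The log2 ratio of group means (vertical axis) of the 6 genes with the authors' size factors and under 5 other ways of scaling or summarizing, where black bars give the median of all 98 genes. The members stay above 0 in each and follow the median of the table, which is 0.88 with no scaling and 0.14 with TMM factors over the 98 genes. Standard errors are not drawn.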

How the data were processed

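RNA of mouse maxillae was sequenced in 9 libraries by CEL-Seq2, a 3′-end method for polyadenylated RNA, with 2 ng of RNA as input. The paper states that the RNA passed quality control and that replicates were chosen for the highest RNA. Whether that choice holds for all 9 libraries is not clear. The authors trimmed reads with cutadapt (quality 10, at least 28 nt), aligned them to GRCm38 (Ensembl release 99) with TopHat (up to 2 mismatches) and counted them by strand with htseq-count (mapping quality of at least 10). Versions are not given in the sources used here. The deposited raw counts are whole numbers per gene, and the deposited normalized counts are a signal, the raw count divided by 1 DESeq2 size factor per library, which was checked as a constant ratio in each library. The authors' mean normalized count differed by over 1% from the mean of the 9 libraries in all 6 members, so that mean was taken over more or other libraries than these 9, and whether those also entered the size factors is not given in the sources used here. The authors' log2 fold changes, their standard errors and Wald scores were not used, and the deposited p-values and adjusted p-values served only to check the filter: all 98 adjusted p-values are under 0.1 and match a Benjamini-Hochberg adjustment over 17100 genes. The paper gives a slightly lower count of differentially expressed genes than these 98. Files hold the 98 genes only, so total library depth is unknown, and precision is given from each gene's own raw counts.

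For each gene the log2 ratio of the group means of normalized counts was computed, with a standard error by the delta method from the SD of each group, in Python 3.11.15 with numpy 2.4.6, pandas 2.3.3 and scipy 1.17.1. The log2 ratio was tested on simulated data with known folds, with genes drawn independently at a fixed dispersion. The standard error was not held to a limit in that test. Deviations within groups used log2(normalized count + 1), and Poisson intervals cover counting error only, since the sources used here do not say whether reads were collapsed to molecules. Columns were matched to samples through the sample descriptions, and the replicate numbers are those of the sample titles. The methods speak of 3 biological replicates with the highest RNA, whereas 4 and 5 libraries are listed and were used here. The labels give no litter or batch, and no 2 libraries of a group agreed within sampling noise (lowest chi-square per degree of freedom 12.0). Exon numbers and overlaps are from GENCODE M21 (GRCm38). The members, lists and settings were chosen with earlier results of these data known. Named genes were the 6 members, the 2 genes most like each (those for Sec24d are not reported here) and members of the transport lists in the table. Other genes are named as examples from the lists or as the few of a list that are in the table, chosen after their values were seen. No test between groups was run, because every gene of the table was chosen for that difference. Alternatives were raw counts, TMM factors (edgeR 4.0.16 in R 4.3.3) and median-of-ratios factors (DESeq2 1.42.0) over the 98 genes, a difference of mean log2 values, a ratio of medians, minimum mean counts of 3 and 10 for the share of genes without overlap, and each library left out. For the correlations, leaving out libraries and the median-of-ratios factors were added after seeing the data.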

Additional observations from a re-analysis of the deposited data

Results flagged for a closer look

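Uso1 had 493 normalized counts in Spon. Healing replicate 2, where the other Spon. Healing libraries had 363, 374 and 374. The distance to the nearest of them was 0.91 of the whole range of the group, above the limit of Dixon's test for 4 samples. Its counting interval (458 to 531) does not reach those of the other libraries (323 to 428 at the widest). Without this library the log2 ratio of Uso1 was 0.61 in place of 0.50, and the groups of Uso1 did not overlap. It was the only value past the limit among 26 groups of values checked for the 6 genes, their sum and their shares, and chance alone flags about 5% of such groups. The cause was not tested.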

How the results depend on the processing

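All 6 log2 ratios stayed above 0 under every alternative, a direction favoured by the filter of the table for this contrast. Their standard errors with raw counts ran from 0.40 (Golph3) to 0.52 (Uso1). With TMM factors the standard errors of Tfg, Lman1, Uso1 and Golph3 were 0.12, 0.15, 0.11 and 0.09, large beside the ratios given below. Those of Sec24d and Arf4 were 0.10 and 0.06. The size of the log2 ratios followed the scaling. With raw counts and no scaling they were 0.96 (Sec24d), 0.89 (Tfg), 0.95 (Lman1), 0.87 (Uso1), 0.95 (Arf4) and 0.90 (Golph3), with a median of 0.92. With TMM factors over the 98 genes they were 0.22, 0.18, 0.21, 0.18, 0.20 and 0.16 in the same order, with a median of 0.19, and with median-of-ratios factors over the 98 genes 0.21, 0.17, 0.20, 0.17, 0.19 and 0.15, with a median of 0.18. The number of members without overlap, 4 with the authors' factors, was 0 under each of these 3 scalings, where the share among all 98 genes was 4.08%, 6.12% and 5.10%. Factors computed from genes of which 65 of 98 are higher in Allograft take part of that difference away by construction. The median of all 98 genes moved by 0.42, -0.32 and -0.33, and the members' median stayed 0.04 to 0.05 above it. With each library left out in turn the log2 ratio ranged from 0.45 to 0.58 for Sec24d, 0.39 to 0.58 for Tfg, 0.46 to 0.66 for Lman1, 0.40 to 0.61 for Uso1, 0.48 to 0.56 for Arf4 and 0.41 to 0.54 for Golph3, the members' median from 0.46 to 0.56, and the number without overlap from 4 to 5. With median-of-ratios factors the median r of Sec24d with the other 5 members was -0.33 and that among the 5 was 0.40. No paired analysis was possible because the labels tie no Spon. Healing library to an Allograft library beyond a shared number, and no test was run.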
